A study of Homo sapiens with 3 samples.

Results

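The clustered protocadherin genes of chromosome 5q31 lie in 3 tandem groups, and the HA-TFE3 binding summits inside them are described here. Members were chosen by position on hg19, as every summit of both lists inside the alpha subcluster (chr5:140165001-140395000), the beta subcluster (chr5:140430001-140640000) or the gamma subcluster (chr5:140700001-140895000). The rule used no measured value, but it was chosen with earlier results of these data known. It gave 13 summits, 5 of the 62287 in replicate 1 and 8 of the 72647 in replicate 2. Binding had been mapped by ChIP-seq, the sequencing of immunoprecipitated chromatin, in HK-2, an established cell line from human kidney proximal tubule. The cells carry HA-tagged TFE3 under doxycycline control, and the protocol used 24 h of culture with or without 0.2 µg/ml doxycycline. Which libraries were from treated cells is not stated in the labels. Among the 3 samples of the study, HA-TFE3 ChIP libraries are 2 and input DNA, which entered no comparison, is 1. Separate cultures are not stated for the 2 replicates, whose spread may thus be technical only.

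Clustered protocadherins are cadherin-like cell surface proteins known chiefly from neurons, where each cell expresses its own combination of isoforms and uses it for self-recognition. Each alpha and gamma gene has its own promoter and first exon, spliced to constant exons shared by its subcluster, while each beta gene is complete in a single exon. Most of these promoters carry a conserved element with the letters CGCT, at which CTCF and cohesin are known to act in promoter choice. TFE3, a transcription factor with a basic helix-loop-helix and a leucine zipper, binds E-box letters such as CACGTG and is known for control of lysosomal and autophagy genes.

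In RefSeq on GRCh38.p14, 55 protein-coding genes lie in order from PCDHA1 to PCDHGC5. Of these, 53 are clustered protocadherins, and the other two, SLC25A2, a mitochondrial ornithine carrier, and TAF7, a subunit of the general transcription factor TFIID, lie between the beta and gamma groups. ZMAT2 precedes the clusters and DIAPH1 follows them. No hg19 gene annotation was used, so no summit is assigned to a gene. Promoter sequences were taken by symbol from RefSeq (GRCh38.p14). They gave 52 windows for 47 of the 53 genes, each with 250 bases before and 50 after an annotated start. PCDHA3, PCDHA13, PCDHB6, PCDHB11, PCDHGA12 and PCDHGC5 were not matched.

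The alpha promoters are shown first, because letters close to a TFE3 site stand inside their shared element while the alpha subcluster held no summit. Each stretch reads 5′ to 3′ on the gene's strand and ends before the annotated start. All lie on the plus strand of chromosome 5. On GRCh38.p14, whose positions cannot be set beside the hg19 positions of the summits, the stretch of PCDHA1 is chr5:140786078-140786119 and that of PCDHA9 is chr5:140848279-140848320. Capitals mark the 6 bases at the E-box position of the element.
PCDHA1: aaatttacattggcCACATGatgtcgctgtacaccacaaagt
PCDHA2: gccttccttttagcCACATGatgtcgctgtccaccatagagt
PCDHA4: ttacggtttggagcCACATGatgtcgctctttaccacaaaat
PCDHA5: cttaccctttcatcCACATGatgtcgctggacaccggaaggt
PCDHA6: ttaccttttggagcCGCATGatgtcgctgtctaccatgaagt
PCDHA7: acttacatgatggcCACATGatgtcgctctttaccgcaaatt
PCDHA8: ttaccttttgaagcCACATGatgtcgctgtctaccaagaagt
PCDHA9: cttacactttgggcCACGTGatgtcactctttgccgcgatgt
PCDHA10: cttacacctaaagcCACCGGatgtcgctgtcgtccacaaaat
PCDHA12: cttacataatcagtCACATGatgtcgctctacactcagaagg

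Alpha windows were searched for the longest run of bases present in at least 6 of them. A count of 6 or more was thus set by the search. A stretch of 15 bases, CCACATGATGTCGCT, was identical in 6 of the 13 alpha promoters, those of PCDHA1, PCDHA2, PCDHA4, PCDHA5, PCDHA7 and PCDHA8. In all 35116 promoter windows it occurred, on either strand, in 6, which are these. With positions counted from 1 at its 5′ end, the element of PCDHA12 had the change C1T, that of PCDHA6 had A3G, that of PCDHA9 had A5G and G13A, and that of PCDHA10 had A5C and T6G. Its 6 bases at the E-box position began 48 to 91 bases before the annotated start in the 10 alpha promoters with at most 2 differences from it. PCDHAC1 and PCDHAC2, the C-type genes at the end of the alpha group, had 6 and 7 differences at their closest stretch.

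The letters TCATGTG, or CACATGA on the other strand, occurred in 7 of 13 alpha windows, in 1 of 14 beta windows and in 0 of 25 gamma windows, against 2.92% of all promoters. All 7 alpha matches stood in the shared element described above, so they are not 7 unrelated sites. The E-box CACGTG, the same on both strands, occurred in 3 alpha windows and in no beta or gamma window, against 7.26% of all promoters. Its longer form TCACGTG, which contains CACGTG, occurred in the windows of PCDHA9 and PCDHA11, against 3.71% of all. The 3 alpha windows with CACGTG were those of PCDHA9, where it stands at the E-box position of the shared element, and of PCDHA10 and PCDHA11, where it stands elsewhere. The last pair is shown with CACGTG in capitals.
PCDHA10: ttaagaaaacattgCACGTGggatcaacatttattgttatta
PCDHA11: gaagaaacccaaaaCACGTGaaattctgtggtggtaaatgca

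In the beta group the corresponding stretch had other letters. GGTGGCGCT, or its reverse complement, occurred in 13 of the 14 beta windows, in no alpha or gamma window, and in 0.501% of all promoters. PCDHB14, PCDHB9 and PCDHB10 came nearest to the alpha element, with 3 differences each, and are shown with the same 6 positions in capitals.
PCDHB14: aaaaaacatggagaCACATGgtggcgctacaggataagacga
PCDHB9: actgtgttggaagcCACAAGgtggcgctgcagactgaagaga
PCDHB10: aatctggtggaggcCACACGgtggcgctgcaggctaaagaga
No gamma window came closer than 4 differences. The 15-base stretch and GGTGGCGCT were chosen after the sequences were seen. These matches describe letters and do not show that a site is bound.

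The clustered promoters were also poor in G, C and CpG. The median GC content was 37.3% over the 13 alpha windows, 40.8% over the 14 beta windows and 47.3% over the 25 gamma windows, against 58.7% over all promoters. CpG dinucleotides numbered 7 at the median in alpha, 7.5 in beta and 10 in gamma, against 14 over all promoters. Fewer than that were counted in 11 of 13 alpha, 14 of 14 beta and 17 of 25 gamma windows. The exceptions in alpha were the C-type genes PCDHAC1, with 27 CpG, and PCDHAC2, with 15. In gamma, the C-type genes PCDHGC3, with 18 CpG, and PCDHGC4, with 23 and 24 in its windows, were also above 14. So were both windows of PCDHGB6, with 16 and 25, the window of PCDHGB4 with 17 and that of PCDHGB5 with 19, while the other window of PCDHGB5 had 14.

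**Figure D1:**
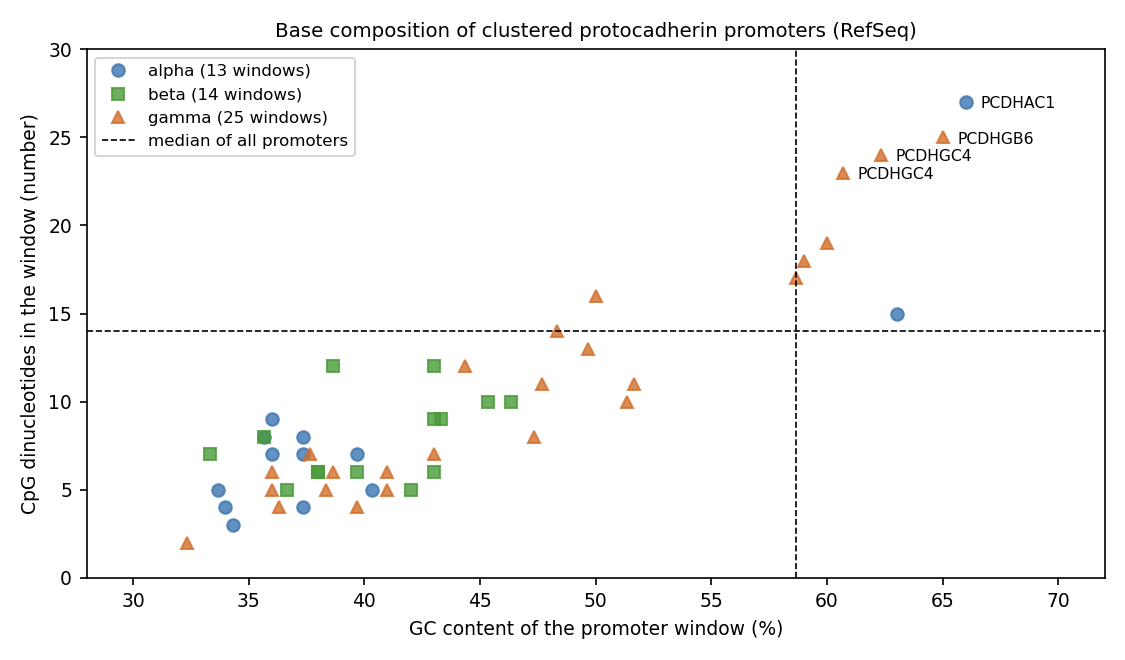
GC content in percent (x axis) and number of CpG dinucleotides (y axis) of 52 promoter windows of 300 bases, by subcluster, with names beside windows above 20 CpG and dashed lines at the medians of all promoters. All 14 beta windows lie below both medians, while PCDHAC1, with 27 CpG, is the highest.

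The first comparison asked how many summits each subcluster held. Each list gives summits as single bases with the authors' own score, which is used only to rank summits within that list. Ranks are given as percentiles, with 100 for the highest score of a list. Summits of the lists were called shared when they were mutually nearest and no more than 100 bp apart. In replicate 1, the alpha subcluster held 0 summits, beta 1 and gamma 4. In replicate 2, alpha again held 0, beta 2 and gamma 6. Alpha was thus empty in both libraries, and 10 of the 13 members lay in the gamma window, the shortest of the subclusters. Some of these lay close to the ends of that window.

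Of the 13 members, 6 formed 3 shared pairs and 7 had no partner. In replicate 1, 3 of 5 were paired, or 60.0% (95% exact Clopper-Pearson interval 14.7 to 94.7), against 76.1% of the whole list. In replicate 2, 3 of 8 were paired, or 37.5% (8.52 to 75.5), against 65.2% of the whole list. Both intervals include the share of the whole list. Beta held 1 shared pair and gamma 2. All intervals cover counting error only, and the lists give no read counts, so depth is unknown.

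The shared pair of the beta subcluster lay at base 140480047 in replicate 1 and base 140480025 in replicate 2, 22 bp apart. Its scores were 14.4 and 9.69, at percentiles 73.2 and 56.1 of the lists. This pair stood above the middle of both lists. The other beta summit was in replicate 2 alone, at base 140593542, with a score of 5.66 at percentile 27.4. It lay 106.9 kb from the nearest summit of replicate 1.

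The highest-ranking pair of the locus lay in gamma, at bases 140855434 and 140855446, 12 bp apart. It scored 25.8 in replicate 1 and 39.5 in replicate 2, at percentiles 90.9 and 96.8. With a mean percentile of 93.9 it ranked first among the 41 shared pairs of the locus, the gaps and both flanks together. It lay 79.7% of the way along the subcluster.

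The other gamma pair lay at bases 140700417 and 140700396, 21 bp apart and 416 bp from the first base of the gamma window in replicate 1. Whether this pair lies at a protocadherin gene or at TAF7, the gene before PCDHGA1, was not determined without an hg19 annotation. Its scores were 11.2 and 3.49, and its percentiles of 62.2 and 8.66 differed most among the locus pairs. The libraries thus ranked this summit differently, above the middle in replicate 1 and low in replicate 2.

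Near the end of gamma, both libraries held summits that missed the 100 bp limit. Replicate 1 had base 140888789 with a score of 16.3 and replicate 2 had base 140888621 with 15.97, 168 bp apart and at percentiles 78.0 and 75.7. Replicate 1 also had base 140894131 (score 9.89, percentile 55.8), 133 bp from base 140893998 of replicate 2 (score 4.36, percentile 13.2). With a limit of 200 bp both were shared, and gamma held 4 pairs. Over the genome, 5.26% of pairs within 200 bp lay more than 100 bp apart.

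The last members were in replicate 2 alone. Base 140893462 scored 3.23 (percentile 4.68) and lay 536 bp before its neighbour at 140893998. Base 140777421, in the middle of gamma, scored 4.41 (percentile 15.3) and was 77.0 kb from any summit of replicate 1. Both ranked low in their list. Whether bases 140893462, 140893998 and 140894131 lie at a protocadherin gene or at DIAPH1, the gene after PCDHGC5, was not determined.

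Just outside the subclusters lay 1 more pair, between alpha and beta, 9126 bp before the beta window. It had the same base in both lists, 140420874, with scores of 20.04 and 13.57 at percentiles 84.4 and 69.5. Of all shared pairs in the genome, 1.86% fell on the same base. The 60 kb between beta and gamma held no summit in either list. After the gamma window the next pair, at bases 140900900 and 140900875, lay 5.90 kb from its end in replicate 1, with scores of 12.6 and 16.4.

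**Figure D2:**
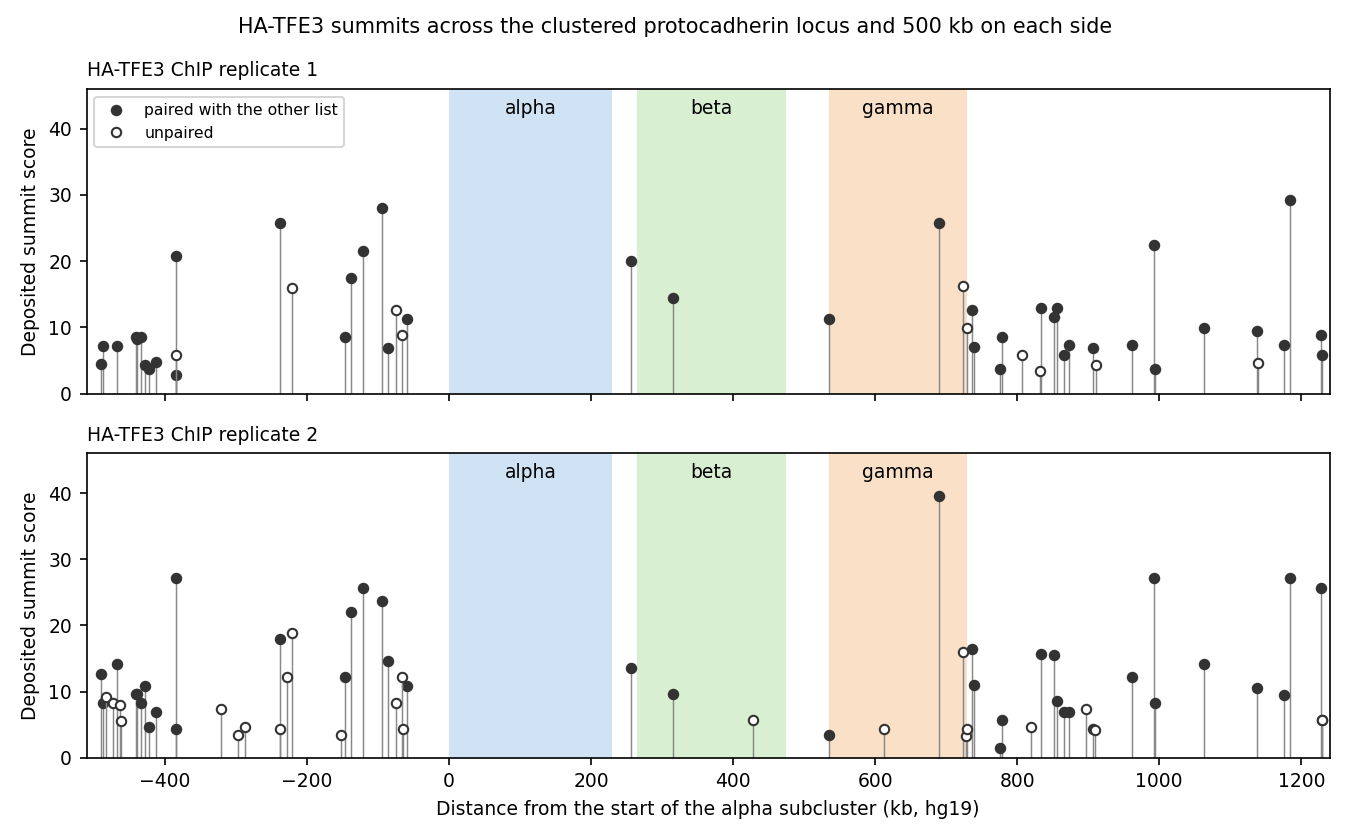
Summits of each replicate by distance from the start of the alpha subcluster (x axis, kb) and deposited score (y axis), filled where paired with the other list and open where not, with the 3 subclusters shaded. Alpha is empty in both libraries, and the tallest summit of the locus stands in gamma at 25.8 in replicate 1 and 39.5 in replicate 2.

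The members of the libraries differed in rank. In replicate 1 all 5 scored above the median of their list, with percentiles from 55.8 to 90.9 and a median of 73.2. In replicate 2 only 3 of 8 did, with percentiles from 4.68 to 96.8 and a median of 21.4. The flanks showed no such gap between the libraries, with 20 of 45 summits above the median in replicate 1 and 29 of 55 in replicate 2, and median percentiles of 46.7 and 52.0. These are descriptions of few summits and were not tested.

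The alpha subcluster and its surroundings formed a long stretch without summits. In replicate 1 it ran from base 140105690, 59.3 kb before the alpha window, to base 140420874, 25.9 kb after it, over 315.2 kb. In replicate 2 it ran from base 140105710 to the same base. The median distance between neighbouring summits was 13.1 kb in replicate 1 and 11.3 kb in replicate 2. A distance at least as wide made up 2.30% of all distances in replicate 1 and 1.85% in replicate 2. Among distances within unstained Giemsa bands, the kind that holds the locus, these shares were 1.11% and 0.889%. All of these are shares of the number of distances and not of the length of the genome. A wide distance covers more bases, so a given position falls in one this wide more often than the shares state. The stretch was the 99th widest of 2498 on chromosome 5 in replicate 1 and the 102nd of 2948 in replicate 2. Wider stretches thus occurred many times on this chromosome. How much of the locus can be mapped by sequencing reads was not measured, and absence of binding is not shown by an absence of summits.

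The second comparison set the locus against the 500 kb before alpha and the 500 kb after gamma. The subclusters had 4.72 shared summits per Mb (3 in 635 kb, 95% exact Poisson interval 0.974 to 13.8). The upstream flank had 36.0 per Mb (18 shared summits, 21.3 to 56.9) and the downstream flank 38.0 (19 shared summits, 22.9 to 59.3). The density of the locus was 0.128 of that of both flanks together (95% interval 0.0252 to 0.403, two-sided exact conditional binomial test, p = 7.17e-05 after Benjamini-Hochberg adjustment over 6 ratios). It was 0.131 of the upstream flank (0.0248 to 0.450, adjusted exact p = 0.000383) and 0.124 of the downstream flank (0.0236 to 0.422, adjusted exact p = 0.000165). With pairing limits of 50, 200 and 500 bp the ratio to both flanks was 0.197, 0.197 and 0.192. The locus had been chosen with earlier results of these data known, so these tests were not set blind to the data.

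Each library alone gave the same direction. Replicate 1 had 5 summits in the locus and 45 in the flanks, a ratio of 0.175 (0.0542 to 0.439, adjusted exact p = 4.54e-05). Replicate 2 had 8 and 55, a ratio of 0.229 (0.0942 to 0.484, adjusted exact p = 2.09e-05). Neighbouring summits are not independent, while the test treats each as a separate event. Over the genome, windows of 730 kb, the length from alpha to gamma, held a median of 8 shared summits, with quartiles of 2 and 17. Such differences between regions are not covered by the test. The p-values of all density ratios are thus too small and their intervals too narrow, by an amount that was not measured. When only the higher-scoring summits of each list were used, those above its median, 2 shared summits were left in the locus and 15 in the flanks, and the adjusted exact p was 0.0711.

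Against the genome average the flanks were dense and the locus was sparse. Shared summits averaged 15.6 per Mb over chromosomes 1 to 22 and X and 10.3 on chromosome 5. The rest of band 5q31.3, the unstained Giemsa band that holds the locus, had 19.9 per Mb. Both flanks lie in that rest and gave 37 of its 85 shared summits, so its density is raised by them. Relative to the genome average of each library, the locus stood at 0.455 ± 0.101 and the flanks at 2.25 ± 0.0743 (SD, n = 2). The difference was larger than the spread between the replicates. That spread is between lists over the same bases and does not measure how regions of the genome differ. The Poisson interval of the locus lay below the genome average for shared summits and for replicate 1 (2.56 to 18.4, average 20.5 per Mb). For replicate 2 it included the average (5.44 to 24.8, average 23.9 per Mb). These intervals cover counting error only and not how regions differ. Of all 730 kb windows, 37.7% held no more shared summits than the span from alpha to gamma, as did 21.8% of those in unstained bands. A density this far below the average was thus frequent.

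Within the flanks, shared summits were not even. From the locus outward in steps of 100 kb, the upstream flank held 3, 3, 1, 2 and 9 shared summits, and the downstream flank held 4, 6, 3, 1 and 5. The step farthest upstream was thus the fullest. The flank pairs with the highest mean percentiles upstream were at base 140071002 of replicate 1 (scores 27.99 and 23.71), base 139781259 (20.8 and 27.1) and base 140044407 (21.6 and 25.6). Downstream they were at base 141348634 (29.3 and 27.1), base 141157976 (22.4 and 27.1) and base 140998721 (12.9 and 15.6).

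**Figure D3:**
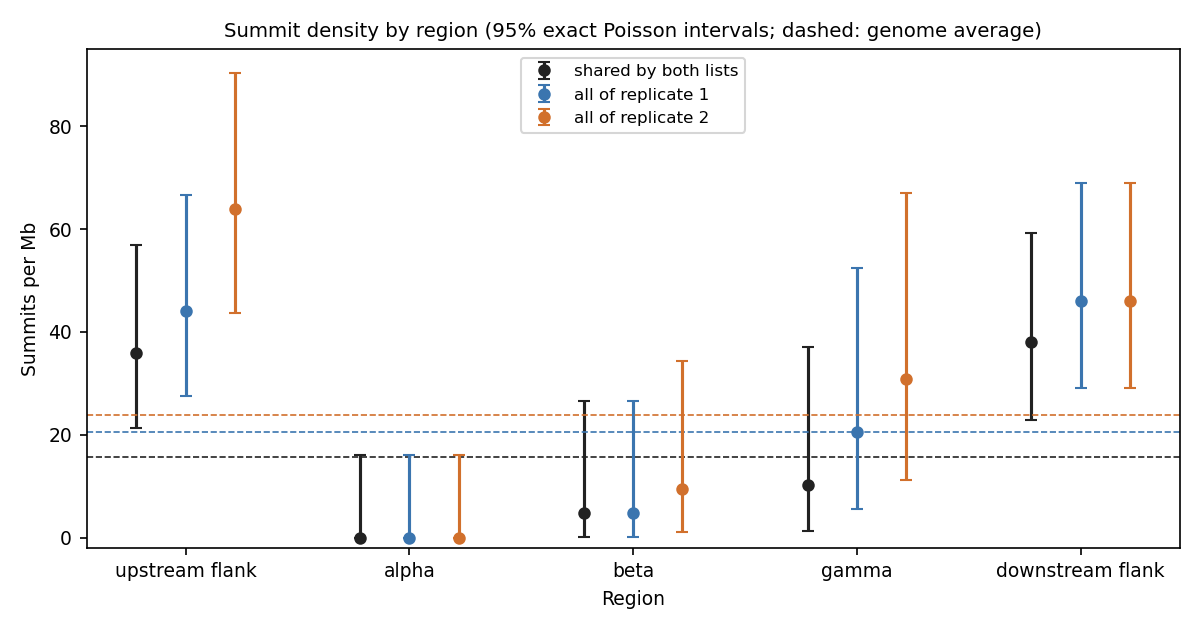
Summits per Mb (y axis) in the flanks and the 3 subclusters (x axis), for shared summits and for all summits of each replicate, with 95% exact Poisson intervals and dashed lines at the genome averages. Shared summits stand at 36.0 and 38.0 per Mb in the flanks and at 0, 4.76 and 10.3 in alpha, beta and gamma.

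The third comparison was between the subclusters. Alpha had 0 shared summits in 230 kb (95% exact Poisson interval 0 to 16.04 per Mb, while the one-sided limit of 3 counts is 13.04 per Mb). Beta had 4.76 per Mb (0.121 to 26.5) and gamma 10.3 (1.24 to 37.0). No difference was detectable at these counts. The exact test gave an adjusted p of 0.573 for alpha against beta, 0.316 for alpha against gamma and 0.612 for beta against gamma. Since members were chosen with earlier results of these data known, the tests between subclusters were not set blind either. This holds also for those over all summits, shared or not. The intervals were wide, since the ratio of alpha to gamma could be anything up to 4.51 and that of beta to gamma anything from 0.00787 to 8.92.

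Over all summits, shared or not, gamma stood further from alpha. In replicate 2 alpha had 0 summits and gamma 6, with an upper limit of 0.720 for the ratio and an adjusted exact p of 0.0140. Of these 6 summits, 2 were paired and 2 scored above the median of their list. Those below it stood at percentiles 4.68, 8.66, 13.2 and 15.3, and bases 140893462 and 140893998 lay only 536 bp apart. In replicate 1 alpha and gamma had 0 and 4, with an upper limit of 1.28 and an adjusted exact p of 0.0665. Gamma as a whole lay at 1.14 ± 0.202 of the genome average and beta at 0.315 ± 0.117 (SD, n = 2). The difference was larger than the spread between the libraries, which does not measure how regions differ. It was not past the test in either library (adjusted exact p = 0.243 and 0.199). Gamma summits lay close to the ends of its window, 1 in each library within 1 kb of the start and 1 more in replicate 1, base 140894131, 869 bp from the end. With all windows shortened by 1 kb at each end, gamma held 2 summits in replicate 1 (alpha against gamma, adjusted exact p = 0.315), 5 in replicate 2 (adjusted exact p = 0.0304) and 1 shared pair. Base 140893998 of replicate 2, 1002 bp from the end, was only just kept, while base 140894131 of replicate 1 was cut. The count and p-value of replicate 2 thus depend on the exact trim. The ratio of the locus to both flanks with these shortened windows was 0.0859 for shared summits, 0.106 in replicate 1 and 0.202 in replicate 2.

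The counts were last set against windows of the same length tiled along chromosomes 1 to 22 and X. Of 13189 windows of 230 kb, 32.9% held no shared summit, as alpha did. Of those inside unstained bands, 20.5% held none. At most 1 shared summit, as in beta, was found in 48.9% of windows of 210 kb and in 35.2% of those in unstained bands. At most 2, as in gamma, were found in 60.8% of windows of 195 kb and in 47.5% of those in unstained bands. The count of each subcluster was thus a frequent one for its length. The whole span from alpha to gamma, with its gaps, held 4 shared summits in 730 kb. No more than that were found in 37.7% of windows of this length and in 21.8% of those in unstained bands, whose median was 12. The tiling covers whole chromosomes, centromeres and heterochromatin included.

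**Figure D4:**
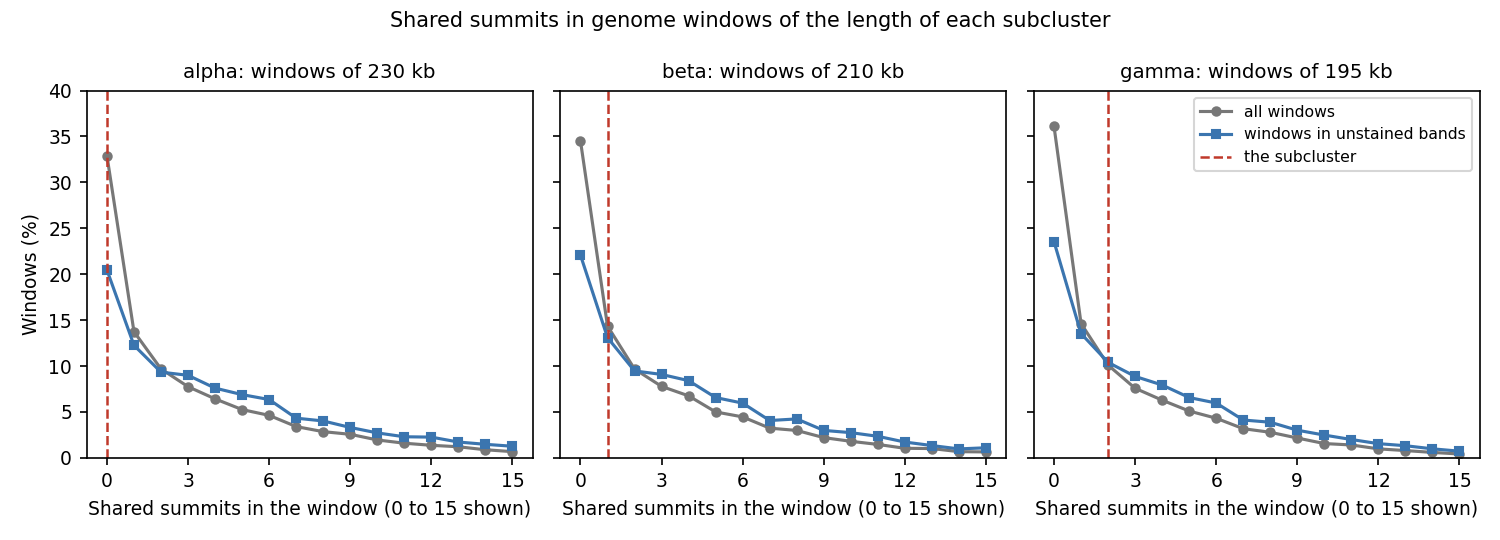
Share of tiled genome windows in percent (y axis) by the number of shared summits they hold (x axis, 0 to 15 shown), for windows as long as each subcluster, over all windows and over those in unstained bands, with a dashed line at the subcluster's own count. Empty windows are the most frequent kind, and alpha, with 0, falls among 32.9% of windows of its length.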

How the data were processed

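ChIP libraries of HA-TFE3 in HK-2 cells (n = 2) were analysed from the summit lists the authors deposited, 1 per library. Each row gives a base, a peak name and a score. The deposited score has no stated scale. The submitters' processing notes name hg19 as the build. Aligner, peak caller, settings and treatment of the input library were not given in the sources used here.

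Positions were made 1-based, and chromosomes 1 to 22 and X were kept. Summits were paired by mutual nearest neighbour within 100 bp. Densities carry exact Poisson intervals, shares exact binomial intervals (95%), and 6 ratios of density an exact conditional binomial test. Bands came from circlize 0.4.16. Python 3.11.15, NumPy 2.4.6, pandas 2.3.3, SciPy 1.17.1 and matplotlib 3.10.9 were used. Pairing and ratios were tested on simulated lists whose positions were drawn independently. Such lists lack the dependence between neighbouring summits, so they do not test the intervals and p-values under it.

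Members, lists and motifs were chosen with earlier results of these data known. The text names all members, and in each flank the 3 shared pairs of highest mean percentile. Alternatives were other pairing limits, higher-scoring summits, each library alone, other flanks, the whole span, shifted windows and, added after seeing the data, windows shortened by 1 kb, also in each library alone.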

Additional observations from a re-analysis of the deposited data

How the results depend on the processing

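Few summits limit every value of the locus. The ratio of the locus to both flanks, to the upstream flank and to the downstream flank stayed below 1 under the 13 alternatives run for each, and past the test except in the higher-scoring subsets. Above the median score the ratios were 0.210, 0.262 and 0.175 (adjusted exact p = 0.0711, 0.300 and 0.0711), and among the 10000 highest-scoring summits they were 0.315, 0.262 and 0.394 (adjusted exact p = 0.586 for each), where only 1 and 5 shared summits were left in the locus and the flanks. At limits of 50, 200 and 500 bp the ratio to both flanks was 0.197, 0.197 and 0.192, to the upstream flank 0.215, 0.197 and 0.187, and to the downstream flank 0.182, 0.197 and 0.197. With 1 library left out, shortened windows included, the ratio to both flanks was 0.106 to 0.229, to the upstream flank 0.108 to 0.197, to the downstream flank 0.104 to 0.274, and of beta to gamma 0.232 to 0.464. The ratio of alpha to gamma was 0 in each, and past the test only without replicate 1, with the windows as given and shortened. Alpha against beta could not be computed among the 10000 highest-scoring summits, where both held none. No paired analysis was possible because the study compares no groups that share replicate numbers.

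The share paired in replicate 1 became 100% at limits of 200 and 500 bp, against 80.3% and 81.9% of the whole list. In replicate 2 it became 62.5% at both limits, against 68.9% and 70.2%. Among the 10000 highest-scoring summits 1 member was left in each library, and it was paired (100%, against 67.2% of these summits). The share of tiled windows with no more shared summits than alpha was 36.0% at 50 bp, 32.0% at 500 bp, 46.9% above the median score and 72.1% among the 10000 highest-scoring. For beta it was 53.4% at 50 bp, 47.8% at 200 bp, 47.5% at 500 bp, 65.7% above the median score and 73.7% among the 10000. For gamma it was 66.0%, 73.4%, 73.0%, 67.4% and 90.1% in the same order. With 1 library left out, all summits of the other list were counted in place of shared summits. The share of windows with no more summits than the subcluster was then 25.1% to 27.9% for alpha, 42.7% to 47.8% for beta and 67.6% to 73.4% for gamma.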

Other observations

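Genes known to act on protocadherin promoter choice were looked up in the same promoter table, from a list of 11 that holds CTCF, cohesin subunits and their loading and release factors, and the chromatin regulators SMCHD1, DNMT3B and SETDB1. Of these, 10 were matched, with 14 windows. CACGTG occurred in 2 windows, both of SETDB1, a histone H3 lysine 9 methyltransferase, against 7.26% of all promoters. TCATGTG occurred in none, against 2.92%. The 14 windows had a median of 26.5 CpG, against 7.5 over the 52 windows of the clustered protocadherins and 14 over all promoters. Summits near these genes were not assigned.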
